A study of Mus musculus with 4 samples.

Results

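TRiC, also called CCT, is the chaperonin of the cytosol, and the 8 genes that encode its subunits, Tcp1, Cct2, Cct3, Cct4, Cct5, Cct6a, Cct7 and Cct8, were followed here across 4 RNA-seq libraries of Nf2-deficient mouse Schwann cells. The members were taken by gene symbol from the deposited gene tables. All 8 were found among the 35604 gene rows of each table, each in a single row with a completed estimate. Cultured cells of the line ESC-FC1801 had received DMSO or 1 µM NXD30001, an HSP90 inhibitor by the title of the series, for 24 h. Mice bearing tumours of the same line were dosed 3 times a week for 4 weeks with vehicle or with NXD30001 at 100 mg/kg. All 4 libraries share the FVB/N background and a floxed Nf2 gene deleted in culture with a Cre adenovirus, so by the labels the ESC-FC1801 cells of every group, controls too, lack Nf2, which encodes merlin. ESC-FC1801 is 1 line, the sex and age of the host mice are not given in the sources used here, and the tumours also hold host cells. The sample type label calls all 4 samples cultured cells, whereas by title, source and treatment 2 of them are tumours, and the titles were followed.

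TRiC folds newly made proteins inside a closed chamber built from 2 stacked rings, each with all 8 subunits, by a cycle of ATP binding and hydrolysis. Actins and tubulins are its best known clients, and several proteins with WD40 repeats depend on it as well. Prefoldin hands unfolded chains to it, and phosducin-like proteins act as its cofactors. It works beside the HSP70 and HSP90 systems, and the heat shock factor HSF1 is known to act on genes of cytosolic chaperones.

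With 1 library in each group there was no replicate error and no test, so "higher" and "lower" describe these libraries. Levels are FPKM, which are scaled to transcript length and allow subunits to be compared within a library. Each difference is taken on the log2(FPKM + 1) scale, treated minus untreated, which understates the change of low genes. Beside it stands the implied error (SE, log2), that is the authors' log fold divided by their test statistic, which belongs to the ratio without the added 1 and covers no spread between cultures or animals. Its median between 100 and 300 FPKM was 0.68 in culture and 0.29 in tumours. Depth is not given by FPKM. Genes with the implied error of a single fragment per library give an estimate of the relative depth, which takes that error to come from counts alone. By it the treated library was 1.05 times as deep as the untreated one in culture (46 genes) and 1.19 times as deep in tumours (70 genes). Of these genes 69.6% in culture and 75.7% in tumours lay within 0.05 log2 of the median ratio.

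The labelled cell type was checked against 7 Schwann cell markers. Sox10 was at 8.42 FPKM in DMSO cells and 4.40 FPKM in treated cells, and at 47.0 FPKM in the vehicle tumour and 140 FPKM in the treated one. S100b was near 0 in all 4 libraries (0.563, 0.0538, 0.305 and 0 FPKM). In culture 8 macrophage markers summed to 2.55 and 2.04 FPKM and 8 endothelial markers to 0.0575 and 2.20 FPKM. Erythroid markers were listed at 0 in both cultures, T cell markers summed to at most 0.168 FPKM, and of 8 muscle markers Mylpf alone passed 1 FPKM (1.40 and 1.94 FPKM). The 8 fibroblast markers summed to 1295 and 1129.5 FPKM there, nearly all from the collagen genes Col1a1, Col1a2 and Col3a1, while Dpt and Thy1 were listed at 0 and Dcn and Lum reached at most 0.272 FPKM. The part of such cells in the results was not tested.

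The subunit genes lie on 8 different chromosomes. RefSeq start windows, which run from 250 bases before to 50 bases after an annotated start, matched 7 of the 8 genes with 9 windows in all, and Cct4 had no match. The windows are on build GRCm38.p6 of the C57BL/6J reference, while the loci given further on are in mm9 as in the authors' tables. The 4 shown belong to the 2 subunits with the largest difference in culture, Cct3 and Cct7, and to Cct5 and Cct6a, which hold a pair of heat shock units close to a start. Cct2 also holds such a pair, 42 bases before a start, and its windows are not shown. Capitals mark the pairs GAANNTTC and TTCNNGAA (2 facing units of a heat shock element), CCAAT boxes and the GC box GGGCGG, each on either strand.
Cct3, chr3:88296885-88297184, plus strand: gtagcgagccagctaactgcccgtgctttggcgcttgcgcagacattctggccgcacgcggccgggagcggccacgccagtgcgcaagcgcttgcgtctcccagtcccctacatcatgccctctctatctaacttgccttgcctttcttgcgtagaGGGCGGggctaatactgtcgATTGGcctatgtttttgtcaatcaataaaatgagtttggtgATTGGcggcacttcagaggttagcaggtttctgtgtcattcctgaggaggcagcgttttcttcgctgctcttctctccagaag
Cct7, chr6:85451255-85451554, plus strand: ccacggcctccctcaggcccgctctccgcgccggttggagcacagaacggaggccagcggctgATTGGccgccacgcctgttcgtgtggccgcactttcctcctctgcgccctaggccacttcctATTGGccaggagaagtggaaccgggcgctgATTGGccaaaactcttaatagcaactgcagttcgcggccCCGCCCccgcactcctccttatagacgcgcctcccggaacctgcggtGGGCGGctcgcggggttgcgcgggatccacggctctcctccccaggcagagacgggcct
Cct5, chr15:31601797-31602096, minus strand: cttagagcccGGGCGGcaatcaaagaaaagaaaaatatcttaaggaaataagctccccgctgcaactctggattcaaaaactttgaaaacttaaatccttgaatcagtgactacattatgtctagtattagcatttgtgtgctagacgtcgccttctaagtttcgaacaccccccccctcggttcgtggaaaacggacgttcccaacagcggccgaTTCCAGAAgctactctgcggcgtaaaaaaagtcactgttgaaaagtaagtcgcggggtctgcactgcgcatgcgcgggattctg
Cct6a, chr5:129787106-129787405, plus strand: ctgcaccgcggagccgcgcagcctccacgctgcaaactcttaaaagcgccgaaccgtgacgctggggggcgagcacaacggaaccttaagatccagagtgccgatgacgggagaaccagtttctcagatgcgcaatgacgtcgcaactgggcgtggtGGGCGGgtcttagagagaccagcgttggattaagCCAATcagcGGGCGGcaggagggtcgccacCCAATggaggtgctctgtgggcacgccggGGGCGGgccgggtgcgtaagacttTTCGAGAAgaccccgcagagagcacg

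The GC box was the letter pattern that the windows had most in common. All 7 matched subunit genes held GGGCGG on one strand or the other, against 38.2% of all 27025 genes with a window and 74.1% of the 2448 genes with a window that reached 30 FPKM in culture. A CCAAT box was found in 4 genes (Tcp1, Cct3, Cct6a and Cct7), against 41.1% of all genes. Cct7 had 3 of them, 187, 125 and 95 bases before the start, and Cct3 had 2, at 74 and 33 bases. The core CCGGAAG of ETS factors was found in Tcp1, Cct2 and Cct8, against 9.93% of all genes and 23.3% of those at 30 FPKM or more.

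No matched subunit gene held 3 heat shock units in a row, that is GAANNTTC with a further GAA after 2 more bases, an element found on either strand in 0.662% of all genes. A pair of units was found in 3 of 7, against 17% of all genes and 14.1% of those at 30 FPKM or more. In Cct5 the pair TTCCAGAA lay 34 bases before the upstream of its 2 starts, and the window of the other held none of the motifs. In Cct6a TTCGAGAA lay 24 bases after the start, and in Cct2 GAAGTTTC lay 42 bases before the downstream of its 2 starts. Cct3 and Cct7, the subunits with the largest differences in culture, held no pair. A match describes letters in the window and not a bound site.

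In culture, all 8 subunit genes were higher in treated cells. The median difference was 0.67 with a range from 0.22 (Cct4) to 1.54 (Cct3), whereas the median over all 12676 compared genes was -0.25. A difference above 0 was found for 40.6% of the compared genes, and for 44.6% of the 4380 genes that reached 30 FPKM in either culture. Of the 8 subunits 2 were at least 2-fold higher, against 12.6% of compared genes and 15.4% of those that reached 30 FPKM, and none was 2-fold lower, against 24.8%. The summed level of the 8 genes was 1158 FPKM in DMSO cells and 1863 FPKM in treated cells, a ratio of 1.61. In the authors' deposited table no subunit was called, where 9.89% of compared genes were called in either direction.

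Cct3, which encodes the gamma subunit, had the largest difference of the family (ENSMUSG00000001416, chromosome 3 from 88101060 to 88125688, mm9). Its level was 18.1 FPKM in DMSO cells and 54.7 FPKM in treated cells. The difference was 1.54 (implied error 0.79), and 5.86% of the compared genes had a larger one. The ratio was 3.02, and the 95% range of the implied error ran from 1.04 to 8.79. It was the only subunit in culture whose range left out a ratio of 1. The share of all compared genes with such a range was not counted.

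Cct7, the eta subunit gene (ENSMUSG00000030007, chromosome 6 from 85402069 to 85418376), was the other subunit past 2-fold. Its level was 39.8 FPKM in DMSO cells and 96.2 FPKM in treated cells. The difference was 1.25 (implied error 0.75), and the range of the ratio, 0.873 to 6.69, took in 1. Cct3 and Cct7 were the lowest of the family with DMSO, a level that enters both the order and the difference.

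Cct2, the beta subunit gene (ENSMUSG00000034024, chromosome 10 from 116488058 to 116500834), was at 228 FPKM in DMSO cells and 450 FPKM in treated cells. Its difference of 0.98 (implied error 0.69) lay just under 2-fold. Cct8, the theta subunit gene (ENSMUSG00000025613, chromosome 16 from 87484120 to 87496085), was at 90.8 FPKM and 159 FPKM, and its difference was 0.81 (implied error 0.71). These 4 subunits, Cct2, Cct3, Cct7 and Cct8, had log2 ratios larger than their implied error, which was not counted over all compared genes.

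The other 4 subunits had log2 ratios smaller than their implied errors. Tcp1, the alpha subunit gene (ENSMUSG00000068039, chromosome 17 from 13104220 to 13133262), was the most abundant in both cultures, with 483 FPKM in DMSO cells, 697 FPKM in treated cells and a difference of 0.53. Cct5, the epsilon subunit gene (ENSMUSG00000022234, chromosome 15 from 31520637 to 31531499), was at 114 and 164 FPKM, a difference that was also 0.53. Cct6a, the zeta subunit gene (ENSMUSG00000029447, chromosome 5 from 130293288 to 130321696), was at 112 and 156 FPKM with a difference of 0.48. Cct4, the delta subunit gene (ENSMUSG00000007739, chromosome 11 from 22890592 to 22903336), was at 73.9 and 86.2 FPKM with a difference of 0.22 and was the only subunit that did not lie above the upper quartile of all compared genes, 0.47. Above the upper quartile of genes that reached 30 FPKM, 0.59, lay 4 of the 8, Cct2, Cct3, Cct7 and Cct8.

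All compared genes in culture were shifted by -0.25 at the median, and relative to that shift the subunits had a median of 0.92. On that scale 4 of 8, Cct2, Cct3, Cct7 and Cct8, were at least 2-fold higher, against 17.8% of all compared genes. Over all compared genes the shift moved the split from 1603 higher and 3149 lower to 2256 and 2331, so the higher share among changed genes went from 33.7% to 49.2%. Proliferation markers moved beside the subunits in culture. All 8 found in the table were lower, 7 of them by at least 2-fold, and their summed level was 1457 FPKM in DMSO cells and 146 FPKM in treated cells. Their part in the subunit differences was not tested.

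**Figure D1:**
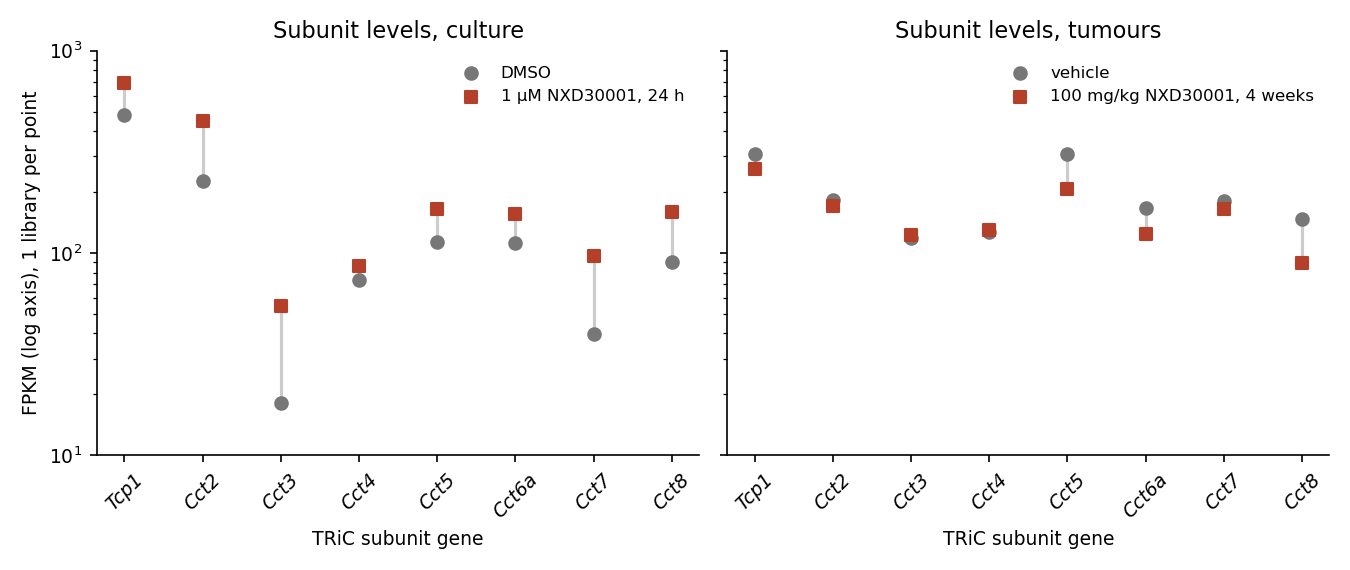
Level of each TRiC subunit gene in FPKM on a log axis, with grey circles for the untreated and red squares for the treated library (1 library per point), in culture on the left and tumours on the right. In culture every square lies above its circle and Cct3 is lowest at 18.1 and 54.7 FPKM, while in tumours 6 of 8 squares lie below. The tables were normalized separately, so levels are read within a panel.

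In tumours, 6 of the 8 subunit genes were lower in the treated library and none by 2-fold. The median difference was -0.18 with a range from -0.71 (Cct8) to 0.04 (Cct3), beside a median of -0.03 over 15550 compared genes. A difference below 0 was found for 52.7% of the compared genes, while 6.93% were at least 2-fold lower and 7.32% at least 2-fold higher. The summed subunit level was 1541 FPKM in the vehicle tumour and 1273 FPKM in the treated one, a ratio of 0.826. No subunit was called in the authors' deposited table, against 5.59% of compared genes. Fewer cells of a type and less RNA per cell cannot be told apart in these bulk tumour samples.

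Cct8 had the largest difference in tumours. Its level was 147 FPKM in the vehicle tumour and 89.5 FPKM in the treated one. The difference was -0.71 (implied error 0.30), and 11.7% of the compared genes had a lower one. The 95% range of the implied error on its ratio of 0.610 ran from 0.407 to 0.915. It was the only subunit in tumours whose range left out 1, and the share of all compared genes with such a range was not counted.

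Cct5 was at 309 FPKM in the vehicle tumour and 208 FPKM in the treated one, and its difference was -0.57 (implied error 0.36). For Cct6a the levels were 167 FPKM and 124 FPKM, and the difference was -0.42 (implied error 0.30). Together with Cct8 they made up the 3 subunits below the lower quartile of all compared genes, -0.35. The remaining 5 lay between the quartiles.

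Tcp1 was at 307 FPKM in the vehicle tumour and 262 FPKM in the treated one, and its difference was -0.23 (implied error 0.18). Cct7 was at 182 and 166 FPKM, and Cct2 at 184 and 171 FPKM, differences of -0.13 and -0.10. Cct3 and Cct4 were the only subunits that were not lower, at 119 and 122 FPKM and at 127 and 130 FPKM, with differences of 0.04 and 0.03. For Cct2, Cct3, Cct4 and Cct7 the log2 ratio was smaller than the implied error.

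Markers of host and tumour cell types differed between these 2 libraries. The 7 Schwann markers summed to 119 FPKM in the vehicle tumour and 429 FPKM in the treated one, and 6 of 6 compared were at least 2-fold higher. The 8 macrophage markers, all lower, summed to 397 and 245 FPKM, and 7 endothelial markers, all lower, to 71.4 and 26.0 FPKM. Fibroblast markers summed to 4123 and 3343 FPKM, with 6 of 8 lower. Erythroid markers summed to 315 FPKM with vehicle and 5.10 FPKM with treatment, where 4 of 5 compared genes, all called in the authors' deposited table, were at least 2-fold lower and the other was higher. Muscle markers summed to 6.17 and 25.5 FPKM (2 compared, 1 higher and 1 lower) and T cell markers to 1.47 and 1.15 FPKM. Proliferation markers summed to 484 and 475 FPKM, with 5 of 8 higher and none past 2-fold. The part of cell makeup in the subunit differences was not tested.

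**Figure D2:**
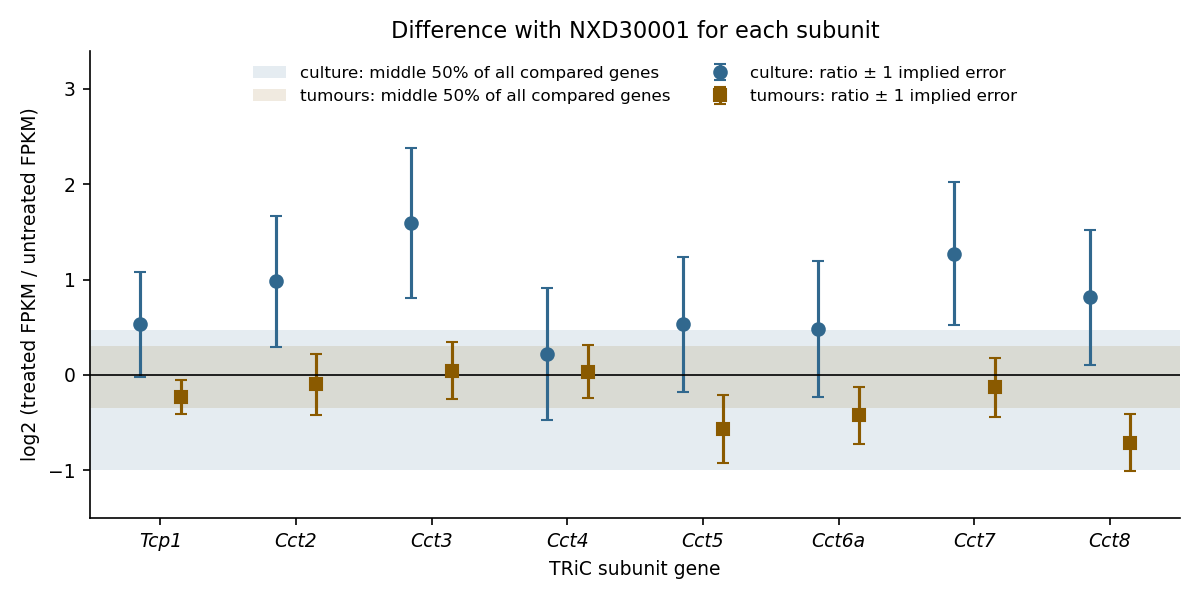
Log2 ratio of treated to untreated FPKM for each subunit gene, with bars of 1 implied error from the authors' deposited table and shaded bands for the middle 50% of all compared genes on the log2(FPKM + 1) scale. Culture values (circles) are all above 0 with long bars, from 0.55 to 0.79, and tumour values (squares) lie near or below 0 with bars from 0.18 to 0.36.

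The 2 tables thus differed in direction for 6 subunits, Tcp1, Cct2, Cct5, Cct6a, Cct7 and Cct8, which were higher in treated cultures and lower in the treated tumour. Of these only Cct8 had a log2 ratio larger than its implied error in both tables. The ratios of Tcp1, Cct5 and Cct6a in culture and of Cct2 and Cct7 in tumours were smaller than theirs. Among 1812 other genes at 30 FPKM or more in all 4 libraries, 32.2% had that pair of directions. By the same limit, which Cct3 did not reach with DMSO, it was 6 of 7 subunits. The difference between the tables was not tested, and dose, time and setting changed together, so they cannot be told apart. Cct4 had the smallest difference by size in both tables.

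Tcp1 and Cct2 were the most abundant subunits in both cultures, and Tcp1 and Cct5 in both tumours. With DMSO the order ran from Tcp1 (483 FPKM) and Cct2 (228 FPKM) through Cct5, Cct6a, Cct8 and Cct4 to Cct7 and Cct3 (18.1 FPKM). With NXD30001 in culture Tcp1, Cct2 and Cct5 stayed in front and Cct3 last, while Cct8 passed Cct6a and Cct7 passed Cct4. In the vehicle tumour Cct5 (309 FPKM) and Tcp1 (307 FPKM) led and Cct4 (127 FPKM) and Cct3 (119 FPKM) closed the order. In the treated tumour Tcp1 led and Cct8 was last. With 1 library each, no spread is at hand to tell neighbours in these orders apart.

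The levels of the subunits were more unequal in culture than in the tumours. The highest level was 26.6 times the lowest with DMSO and 12.7 times with NXD30001, and 2.61 and 2.92 times in the vehicle and treated tumours. Without Tcp1 these ratios were 12.6, 8.22, 2.61 and 2.32. Tcp1 made up 41.7% of the summed subunit level with DMSO and 37.4% with NXD30001, and 20.0% and 20.6% in the vehicle and treated tumours. Cct3 made up 1.57% and 2.94% in the cultures and 7.70% and 9.61% in the tumours. A share within a library does not depend on the scaling between libraries, but the shares carry the same errors as the levels.

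Within culture the largest change in share was that of Cct2, which went from 19.7% to 24.1%, or 4.49 points. Cct3 (1.37 points), Cct7 (1.73 points) and Cct8 (0.721 points) also had a larger share in treated cells, and Tcp1 had the largest loss at -4.28 points. Within tumours Cct5 went from 20.0% to 16.3%, or -3.72 points, and Cct8 from 9.52% to 7.03%. Cct4 had a smaller share in treated cultures (6.38% and 4.63%) and a larger one in the treated tumour (8.25% and 10.2%).

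**Figure D3:**
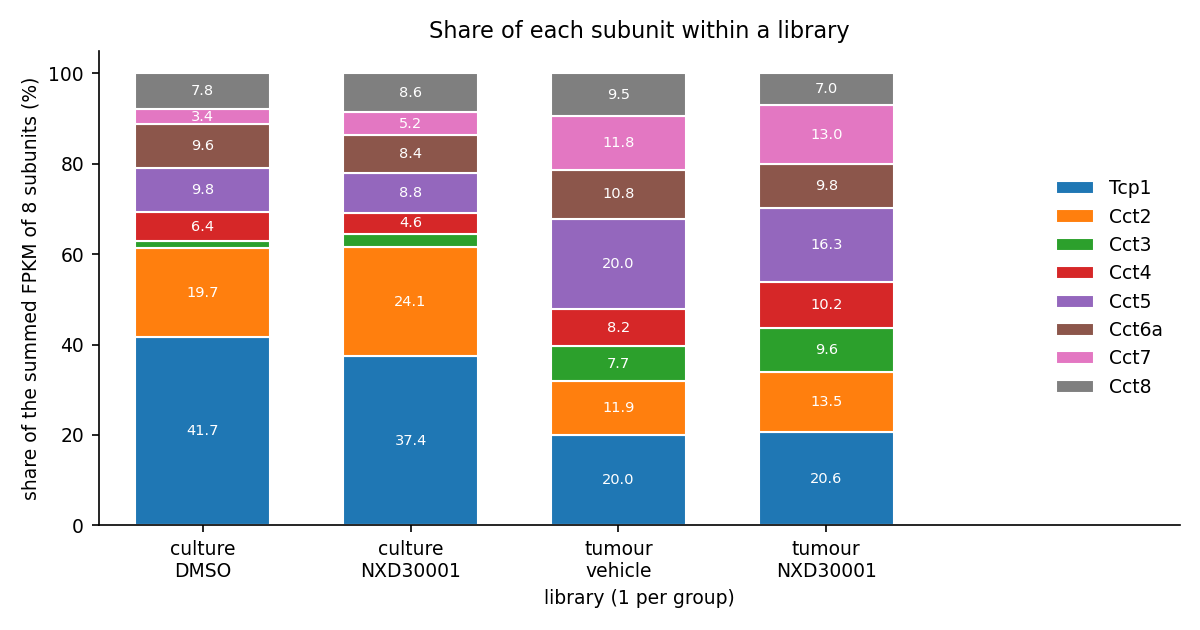
Share of each subunit gene in the summed FPKM of the 8 subunits (%), stacked per library, 1 library per group. Tcp1 and Cct2, the largest in culture, take 61.3% of the DMSO culture and 31.9% of the vehicle tumour, where the 8 shares are more even. The largest in the vehicle tumour are Cct5 and Tcp1, at 20.0% each.

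The loci of 2 subunits are given for other gene rows too, and how reads were divided there is uncertain. The locus of Tcp1 is also that of Mrpl18, Acat3, SNORA20 and SNORA29, and that of Cct6a is also that of SNORA22. In DMSO and treated cells Mrpl18 was at 51.2 and 38.0 FPKM and Acat3 at 2.34 and 0.900 FPKM, both lower where Tcp1 was higher. SNORA29, a small nucleolar RNA, was listed at 0 in DMSO cells and at 1356 FPKM in treated cells, where FPKM divides by the length of a very short gene. SNORA20 and SNORA22 were listed at 0 in all 4 libraries. Over the 6 subunits with a locus of their own the median difference was 0.89 in culture and -0.11 in tumours.

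Other genes of the chaperonin's pathway were mixed in direction in culture, where all 8 subunits were higher. There the 5 prefoldin subunits found in the table were divided, 2 higher and 3 lower, with a median of -0.17. They ran from Vbp1 (121 and 75.6 FPKM, -0.67) to Pfdn5 (33.2 and 45.8 FPKM, 0.45). In tumours 4 of 5 were lower with a median of -0.31, from Pfdn1 (127 and 90.6 FPKM, -0.48) to Pfdn4 (21.4 and 30.3 FPKM, 0.48). None was past 2-fold in either table.

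Of the cofactors, Pdcl, a phosducin-like protein, was at 54.6 and 28.3 FPKM in culture (-0.92) and at 14.7 and 19.6 FPKM in tumours. Pdcd5, a regulator that binds TRiC, was at 313 and 168 FPKM in culture (-0.89) and at 27.1 and 40.5 FPKM in tumours (0.56). Txndc9 had the highest difference of the list in culture (0.01) and the lowest in tumours (-0.28). The 4 compared members had a median of -0.51 in culture and 0.15 in tumours.

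The paralogues related to TRiC were low. Cct6b, the testis form of the zeta subunit, was listed at 0 in all 4 libraries, and Cct8l1 reached at most 0.0404 FPKM. Bbs10 and Bbs12, chaperonin-like genes of the Bardet-Biedl complex, differed by -2.13 (14.5 and 2.53 FPKM) and -2.08 (14.5 and 2.65 FPKM) in culture. In tumours all 3 compared members were lower by less than 2-fold, from Mkks (-0.42) to Bbs10 (-0.32). Their implied errors there were 0.45 for Mkks, 0.82 for Bbs10 and 6.78 for Bbs12, so these directions are weak. Mkks had no completed estimate in culture. None of the paralogues was called in the authors' deposited table.

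Among client genes, the cytoplasmic actin genes Actb and Actg1 differed by -0.26 (330 and 276 FPKM) and -0.22 (117 and 101 FPKM) in culture, where neither was called. In tumours 3 of 4 compared actins were called higher in the authors' deposited table, against 3.14% of all compared genes. These were Actb (3808 and 3973 FPKM, 0.06), Actg1 (1132 and 1556 FPKM, 0.46) and Acta2, smooth muscle actin (82.0 and 186 FPKM, 1.17). The call of Actb goes with a small difference and an implied error of 0.014. The median implied error in tumours between 300 and 1000 FPKM was 0.30. Acta1 had the lowest difference (-0.03). Among 13 compared tubulin genes in culture 7 were higher and 6 lower, from Tuba1b (209 and 832 FPKM, 1.99) to Tube1 (10.3 and 0.146 FPKM, -3.30), which was called in the authors' deposited table. In tumours 6 of 15 were higher and 9 lower, from Tubb4 (0.198 and 4.42 FPKM, 2.18) to Tuba4a (23.6 and 8.18 FPKM, -1.42), both called in the same source. Tuba1b was also called lower there (520 and 443 FPKM, -0.23, implied error 0.037). That made 1 tubulin called higher and 2 lower, against 3.14% and 2.45% of all compared genes. Members of these families are near-identical in parts, so the split of reads between them is uncertain.

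The tubulin cofactors, which assemble the tubulin dimer after TRiC, had a median of -0.39 in culture (6 compared) and -0.02 in tumours (7 compared). In culture they ran from Tbcd (25.04 and 10.3 FPKM, -1.20) to Tbcb (13.3 and 23.9 FPKM, 0.80), and in tumours from Tbca (-0.57) to Tbcc (0.28). Of 15 other client genes compared in culture 10 were lower and 5 higher, with 7 at least 2-fold lower and a median of -0.84, where 59.4% of all compared genes were lower and 24.8% at least 2-fold lower. They ran from Plk1, a mitotic kinase (47.5 and 2.02 FPKM, -4.01, called in the authors' deposited table), to Gnb5, a G protein beta subunit (5.94 and 14.6 FPKM, 1.16). In tumours 10 of 16 were higher and none was past 2-fold, from Gnb4 (-0.79, called there) to Bbs2 (0.64).

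The mitochondrial chaperonin, a separate machine built from Hspd1 and its lid Hspe1, was higher in culture as the subunits were, with Hspd1 at 288 and 364 FPKM (0.34) and Hspe1 at 57.6 and 209 FPKM (1.84). In tumours the differences were -0.21 and -0.30. Of the heat shock factors, Hsf1 was at 3.92 and 8.46 FPKM in culture (0.94) and Hsf2 at 10.3 and 21.4 FPKM (0.99). In tumours Hsf1 was at 48.5 and 47.2 FPKM, and the list ran from Hsf4 (-0.29) to Hsf2 (0.09). Of the pathway genes named with values, Cct6b, Pfdn4, Bbs12, Mkks, Tubb4, Tuba4a, Tbcb, Tbcd, Hspd1 and Hspe1 have a locus that is given for another row too.

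**Figure D4:**
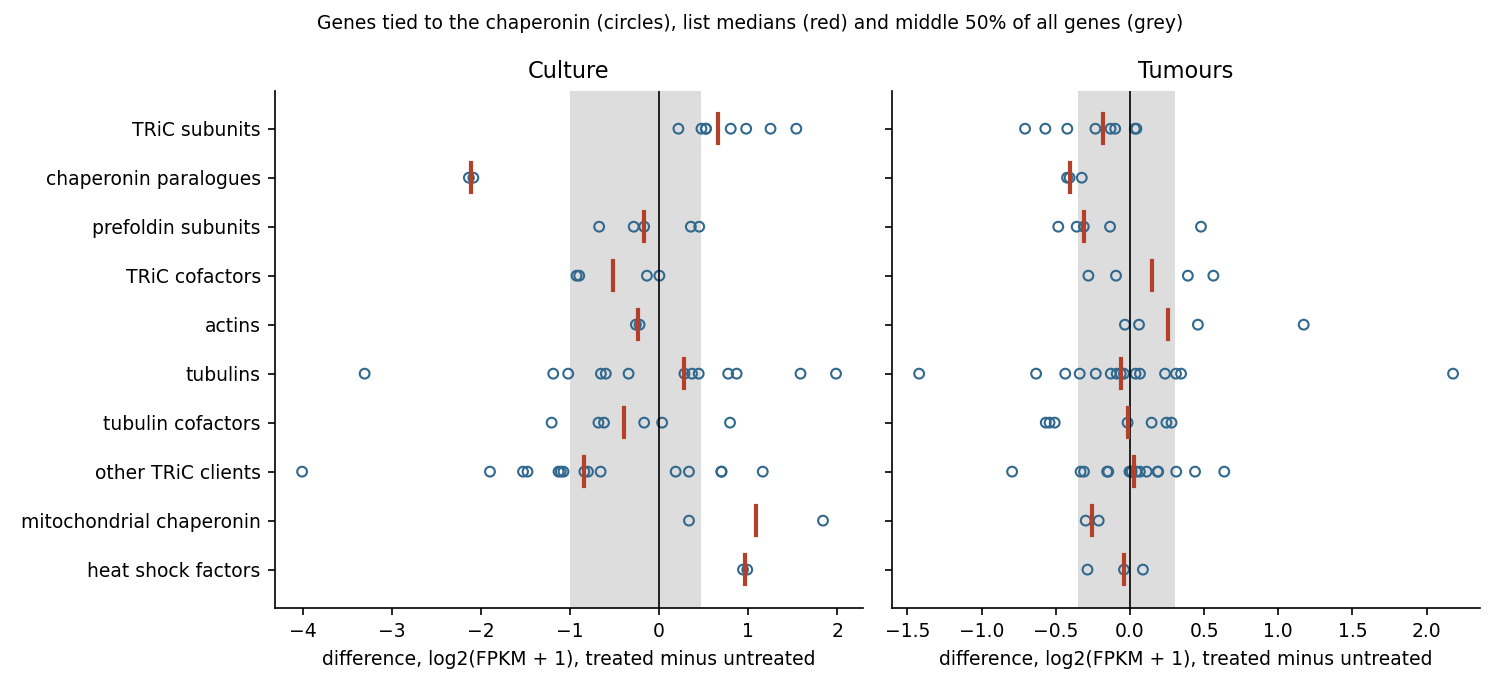
Difference on the log2(FPKM + 1) scale for genes of 10 lists tied to the chaperonin, with a circle for each compared gene, a red bar for the list median and a grey band for the middle 50% of all compared genes. The 2 panels have different x axes. In culture the subunit circles lie right of 0 with a median of 0.67, while the prefoldin and cofactor medians are -0.17 and -0.51.

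The genes nearest to the family in both differences were sought among those at 30 FPKM or more in all 4 libraries, by the Euclidean distance over the 2 differences from the subunit medians. They were Txnrd1, a thioredoxin reductase gene (0.68 in culture and -0.17 in tumours), Mesdc2 (0.69 and -0.20), Rab2a, a small GTPase of vesicle traffic (0.71 and -0.18), Ergic3 (0.67 and -0.22) and Serinc1 (0.71 and -0.17). Subunit distances were taken for the 7 subunits in that set, since Cct3 was below 30 FPKM with DMSO. With only 2 differences the likeness is loose. Of the other genes 56 were nearer to the medians than the nearest of these subunits. The median distance of the 7 was 0.41, and 347 genes were nearer than that.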

How the data were processed

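RNA of cultured cells and tumours was sequenced, 1 library per group. Strand and poly(A) selection are not given in the sources used here. Tools listed in the submitters' processing notes are CASAVA, TopHat (1.2.0), Cufflinks (1.0.2) and Cuffdiff, with build mm9. The authors deposited FPKM for each library in 2 tables of 35604 genes. Per the file headers these also hold natural log fold changes, a statistic and q-values, the last 2 treated as scores of the authors' comparison, since q reached 2.05. The deposited fold matched the ratio of FPKM to within 1.23e-05 in natural log.

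Rows of status FAIL (705 in culture, 347 in tumours) and LOWDATA (61 and 449) were left out. A gene was compared where at least 1 library of the table reached 1 FPKM. Differences were log2(FPKM + 1), and 2-fold was counted on that scale. Calculations used Python 3.11.15, pandas 2.3.3 and numpy 2.4.6. The code for the 2-fold counts was checked on simulated data with set changes and no noise, which does not measure how reliable the counts are. Named genes were all 8 subunits, the highest and lowest member of each pathway list per comparison, and the 5 genes nearest to the family medians. A marker of the Schwann cell list is not reported here. Symbols in several rows entered lists with their highest row. Start windows came from RefSeq (GRCm38.p6), and motifs were matched exactly. Members and lists were chosen with earlier results of these data known, and the motifs after the levels were seen. Alternatives were other pseudocounts, minimum levels, centring and leaving out shared loci. The implied error covers the authors' model only, and the depth of each library is unknown.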

Additional observations from a re-analysis of the deposited data

Results flagged for a closer look

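For 6 subunits the treated library was higher than the untreated one in culture and lower in tumours, and the difference between the settings was not tested. Among 1812 other genes at 30 FPKM or more in all 4 libraries, 32.2% had that pair of directions. Only for Cct8 was the log2 ratio larger than its implied error in both settings. As tumour difference minus culture difference on the log2 scale, the gap was -0.76 for Tcp1, -1.08 for Cct2, -1.10 for Cct5, -0.90 for Cct6a, -1.38 for Cct7 and -1.51 for Cct8. Cct3 and Cct4 were higher in both settings and are not listed, though Cct3 differed by 1.54 in culture and 0.04 in tumours. Each setting has 1 treated and 1 untreated library.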

How the results depend on the processing

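Other pseudocounts, minimum levels and leaving out shared loci cannot turn the sign of a difference, and centring in culture moves it up. Centring in tumours could turn one, and there the 6 lower subunits stayed below 0, with Cct2 nearest at -0.07 and -0.06. The number of subunits at least 2-fold higher in culture went from 2 to 4 relative to the median of all compared genes. It was 3 relative to the median of genes at 30 FPKM or more. The shares of all compared genes at least 2-fold higher were 12.6%, 17.8% and 15.3% in the same order. The median in culture ranged from 0.63 (pseudocount 10) to 0.92, and in tumours from -0.18 to -0.11. Over all compared genes, the numbers past 2-fold in culture (1603 higher, 3149 lower) were 655 and 1143 with a pseudocount of 10 and 673 and 1046 among genes at 30 FPKM or more. In tumours (1139 and 1077) they were 273 and 263, and 265 and 262. The largest change in share stayed with Cct2 in culture (4.86 points without Tcp1). Without Cct5 in tumours it was that of Cct8, -3.50 points. No paired analysis was possible because each group has 1 library, and no library could be left out for the same reason.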
